A study of Mus musculus with 12 samples.

Results

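The loss of Sox9 in adult mouse cartilage was followed in 8 of the 12 bulk RNA sequencing libraries of the series, those with floxed Sox9 alleles and no floxed Sox8 alleles. They were chosen by genotype and formed 4 matched pairs, each an AcanCreERT2 library against a library without Cre from the same tissue and day. The 4 mutant libraries had the genotype Sox9fl/fl AcanCreERT2/+ and came from articular cartilage at day 7, articular cartilage at day 14, growth plate at day 7 and growth plate at day 14. The 4 control libraries had the genotype Sox9fl/fl and came from the same tissues and days. All mice were 3 months old, and the column headers also name a reporter allele, R26tdT/+, for all 8 libraries. What day 0 was is not stated in the labels or headers. The other 4 libraries carried floxed Sox8 and Sox9 alleles at day 14, with or without AcanCreERT2, and serve here only as a comparison. Each tissue, day and genotype had 1 library of laser-captured knee cartilage, and the labels tie no library to an animal. The question addressed here is which genes moved the same way in both cartilages after recombination of Sox9. Values below are given in the order articular cartilage day 7, articular cartilage day 14, growth plate day 7 and growth plate day 14.

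Sox9 is a transcription factor that starts and maintains the chondrocyte programme by binding, often as a pair of molecules, to enhancers of cartilage matrix genes such as Col2a1 and Acan. Sox8 is a close relative, and Sox5 and Sox6 are partners that make Sox9 more effective at those enhancers. Articular cartilage covers the joint surface and is kept for life, whereas growth plate chondrocytes pass through proliferation and hypertrophy and give way to bone. AcanCreERT2 is a Cre recombinase at the aggrecan gene that is switched on by tamoxifen, so recombination is aimed at cells that express Acan.

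The table lists 14712 genes in NRPKM, the authors' further normalised form of RPKM, with 1 as its lowest value. Between 1299 and 2823 genes per library were listed at 1, and depth is unknown. The gene with the highest value, AC087541.1, took 32.8% to 45.1% of the summed values of each library. In the mutant articular library of day 14, 219 consecutive rows of the table were listed at 1, from Mov10 to Wls (chromosome 3, 104794836 to 159938664, mm10). The longest such stretch in any other library of the series was 28 rows, and only 19 to 38 of these 219 rows were at 1 in any other of the 8 libraries. Values of that library for Col11a1, Papss1, Sec24d, Dkk2, Lef1, Bmpr1b, Emcn and Vcam1 lie in this stretch. Rpl34, a ribosomal protein gene in it, had 42.6 to 74.9 in the other 7 libraries, and Col11a1 had 115 to 2892. Values of that library in the stretch are therefore not read as low expression, although the fit over all genes keeps them. Without the 219 rows limma called 225 genes, 166 higher and 59 lower. Chondrocyte markers in controls included Acan at 2599, 2225, 2887 and 1694 NRPKM and Col2a1 at 401, 313, 21242 and 13921. Matn3, the matrilin-3 gene, was at 1 in both articular controls. Col9a1, a collagen IX gene, was close to that lowest value in both, with its values given among the cartilage collagens below.

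The floxed gene itself was lower in every mutant, by a difference that did not pass the test. Sox9 (chromosome 11, 112782224 to 112787760) had 304, 309, 236 and 148 in mutants, against 408, 349, 314 and 335 in controls. All 4 mutants lay below all 4 controls, yet the log2 fold change of −0.54 ± 0.23 (SE, 4 pairs) did not pass limma (Benjamini-Hochberg adjusted p = 0.282). The labels do not say which exons are floxed, and each value sums reads over the gene, so a transcript that lost only some exons would still be counted. In such bulk samples fewer expressing cells and less RNA per cell cannot be told apart.

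Beside Sox9, a long noncoding RNA gene stood out. Gm11681 (chromosome 11, 112792731 to 112799008, minus strand) lies 4970.0 bases beyond the end of Sox9 and was singled out after its values were seen. It had 104, 79.7, 78.0 and 30.4 in mutants, against 1, 1, 1 and 1 in controls. Mutants and controls did not overlap, and the log2 fold change was 5.08 ± 0.29 (limma, Benjamini-Hochberg adjusted p = 0.00545). Since 1 is the lowest value listed, this estimate depends on that floor. Gm11681 and Gm16309 were the 2 genes of the table at 1 in all 4 controls and above 3 in all 4 mutants, and 0 genes showed the reverse. Gm16309, which has no GENCODE match, had 7.68, 11.3, 5.64 and 10.5 in mutants, against 1, 1, 1 and 1 in controls. In the Sox8fl/fl Sox9fl/fl libraries Gm11681 had 38.7 and 1.48 in mutants and 1 and 1 in controls (articular, then growth plate). Gm16309 had 8.10 and 1.36 in those mutants and 6.55 and 1 in those controls, so it was not at 1 in every library without Cre. Strand use in counting is not given, so reads of overlapping transcripts cannot be told apart.

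Sox8, which was not floxed in these 8 libraries, fell. It (chromosome 17, 25565892 to 25570686) had 5.16, 1.63, 6.71 and 4.93 in mutants, against 23.2, 17.8, 29.0 and 21.7 in controls. The groups did not overlap, and the log2 fold change was −2.18 ± 0.21 (limma, Benjamini-Hochberg adjusted p = 0.016). Among 17 listed chondrocyte transcription factors Sox8 was the 1 gene called, against 1.36% of all genes. Foxa2 (−1.47) and Foxa3 (−1.31), forkhead factors of hypertrophic chondrocytes, were lower in all 4 pairs and Runx1 (1.20) and Arid5a (0.51) higher in all 4, without passing. The Sox9 partners Sox5 and Sox6 had log2 fold changes of −0.22 and 0.15 and moved in both directions.

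Acan fell in every pair, and as the gene that holds the Cre it is no independent readout. It (chromosome 7, 79053483 to 79115099) had 430.0, 316, 274 and 288 in mutants, against 2599, 2225, 2887 and 1694 in controls, with no overlap, and changed by −2.84 ± 0.24 on the log2 scale (limma, Benjamini-Hochberg adjusted p = 0.0158). The neighbouring antisense gene AC110520.1 (Gm26633 in GENCODE, chromosome 7, 79018053 to 79053323) lies on the minus strand 159 bases from the start of Acan and had 6.19, 6.795, 4.69 and 5.62 in mutants, against 36.7, 28.9, 51.1 and 23.9 in controls. Its log2 fold change was −2.36 ± 0.24 (limma, Benjamini-Hochberg adjusted p = 0.0198). Mfge8, the lactadherin gene on the other side of Acan, lies 18668 bases beyond its end and had 141, 116, 61.3 and 28.7 in mutants, against 351, 312, 323 and 270.4 in controls, also without overlap (−2.07 ± 0.34, adjusted p = 0.0426 by limma with Benjamini-Hochberg adjustment). The nearer Hapln3 (−0.16) and the neighbours Isg20 (−0.38) and Abhd2 (0.00) were not called. Hapln3 had a mean of only 1.89 over the 8 libraries, close to the lowest listed value in mutants and controls alike. A fall could therefore hardly show for Hapln3, and its missing call does not tell whether it was affected. These neighbours were chosen after their values were seen.

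**Figure D1:**
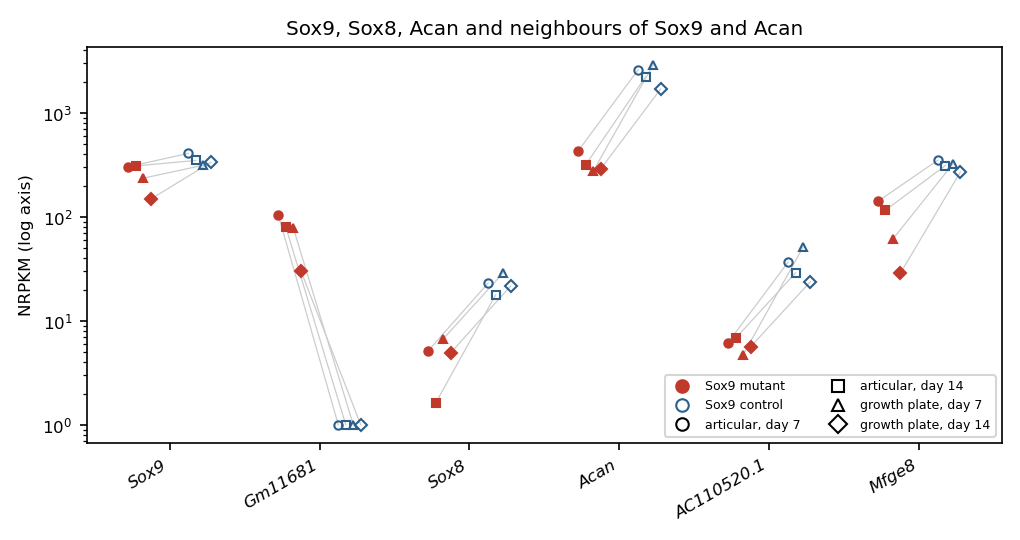
NRPKM on a log axis of Sox9, Gm11681, Sox8, Acan, AC110520.1 and Mfge8 in the 8 libraries, with filled symbols for mutants, open symbols for controls, shapes for tissue and day, and a line joining each pair. Gm11681 sits at 30.4 or above in mutants and at 1 in controls, while Sox9 is lower in each mutant by a smaller ratio than Sox8 or Acan.

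Across the table, limma with Benjamini-Hochberg adjustment called 200 of 14712 genes (1.36%) at an adjusted p under 0.05, 142 higher (0.965%) and 58 lower (0.394%) in mutants. By GENCODE type 104 of the 142 rises and 54 of the 58 falls were protein-coding genes. Each of the 200 had 1 direction in all 4 pairs, and in 131 of them all mutants lay above all controls (94, against 7.54% of all genes) or below them (37, against 1.22%). Since calls were made from these same pairs, that shared direction gives no separate support. Over all genes 2996 (20.4%) were higher and 748 (5.08%) lower in all 4 pairs, of which 724 lay outside the 219-row stretch. At least 2-fold on the log2(value + 1) scale in every pair, 80 genes were higher and 41 lower. The split between rises and falls depended on scaling. As deposited the median over all genes was 0.17 in log2 fold change, with pair medians of 0.16, 0.06, 0.30 and 0.00. Scaling to the median ratio brought the median to 0.03 and called 64 genes, 28 higher and 36 lower. Quantile normalisation brought it to −0.01 and called 56, 21 higher and 35 lower. Under both, 33 of the 58 falls and 18 of the 142 rises kept their call. No set of 3 pairs sufficed: limma called 0 genes without the articular day 7 pair, 0 without the articular day 14 pair, 0 without the growth plate day 7 pair and 1 without the growth plate day 14 pair, against 1737, 2305, 1980.0 and 2050.0 at an unadjusted p under 0.05. It also called 0 with an ordinary empirical Bayes variance that has no mean trend and is not robust (2607 unadjusted). For 1 gene alone, an exact sign-flip test over 4 pairs cannot give a two-sided p below 0.125.

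**Figure D2:**
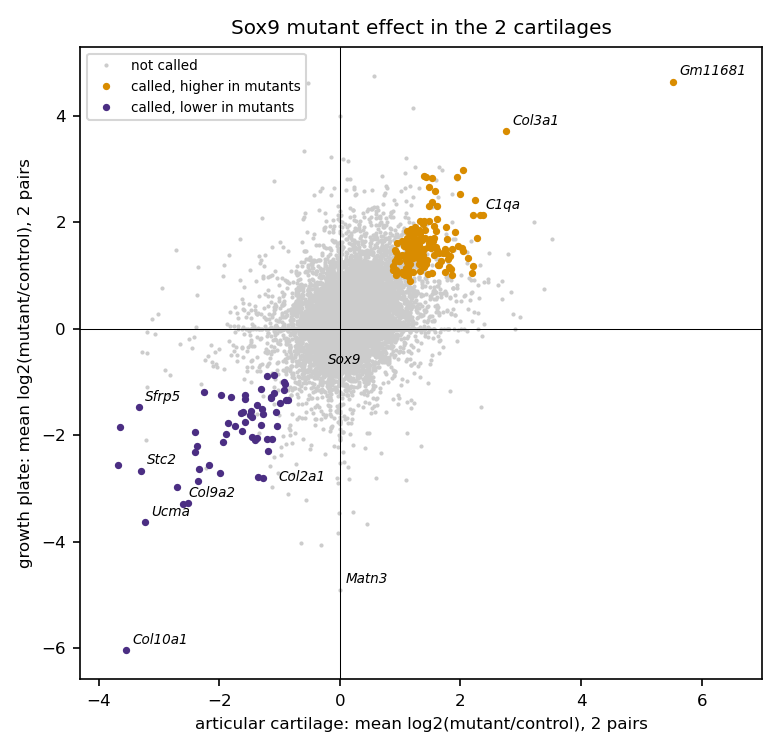
Mean log2 ratio of mutant over control in growth plate (vertical axis, 2 pairs) against articular cartilage (horizontal axis, 2 pairs), 1 point per gene, with called genes coloured. Called falls lie in the lower left and called rises in the upper right, and Matn3, at 1 in all 4 articular libraries, is lower in growth plate mutants without being called.

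Among called genes that had a mean value of 10 or more and were not predicted genes by symbol, the 8 largest shared falls were in Col10a1, Ucma, Stc2, Col9a2, Col9a3, Acan, Itih5l-ps and Cpm. That limit on symbols leaves out 3110079O15Rik (Snorc, −3.11), which fell more than Stc2. Since Sox9 binds DNA directly, the 250 bases before the start of Col10a1, Ucma, Stc2 and Col9a2 are shown, from RefSeq on GRCm38.p6, with the SOX-type letters ACAAAG or their reverse complement CTTTGT in capitals where a search of both strands for ACAATG and ACAAAG found them. The regions are chr10:34389731-34389980 (plus strand), chr2:4975872-4976121 (plus strand), chr11:31370062-31370311 (minus strand) and chr4:121039316-121039565 (plus strand), and each is read 5′ to 3′ along the gene. The RefSeq start of Col9a2 lies inside the longer GENCODE gene.
Col10a1: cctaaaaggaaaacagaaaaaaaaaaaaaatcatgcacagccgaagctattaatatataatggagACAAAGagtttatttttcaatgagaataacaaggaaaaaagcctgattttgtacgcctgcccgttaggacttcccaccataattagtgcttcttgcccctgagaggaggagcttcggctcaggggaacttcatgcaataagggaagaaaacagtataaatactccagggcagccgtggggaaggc
Ucma: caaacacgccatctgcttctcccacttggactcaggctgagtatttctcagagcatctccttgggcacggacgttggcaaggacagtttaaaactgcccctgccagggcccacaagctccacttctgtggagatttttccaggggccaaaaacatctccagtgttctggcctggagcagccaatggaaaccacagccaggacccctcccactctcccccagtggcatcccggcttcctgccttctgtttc
Stc2: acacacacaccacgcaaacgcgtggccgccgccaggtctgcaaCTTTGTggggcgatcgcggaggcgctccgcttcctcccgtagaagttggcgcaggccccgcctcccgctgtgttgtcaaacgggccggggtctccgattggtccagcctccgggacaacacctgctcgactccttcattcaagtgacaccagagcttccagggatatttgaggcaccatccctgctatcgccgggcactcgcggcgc
Col9a2: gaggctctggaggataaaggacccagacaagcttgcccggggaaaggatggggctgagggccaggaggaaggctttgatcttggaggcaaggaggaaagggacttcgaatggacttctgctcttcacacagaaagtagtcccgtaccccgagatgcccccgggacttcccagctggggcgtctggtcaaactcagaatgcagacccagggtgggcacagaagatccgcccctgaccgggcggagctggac
Col10a1 held 1 match, 185 bases before its start, and Stc2 held 1, 207 bases before. Ucma and Col9a2 held 0 in this window. Of the first 4 rises with a tabulated promoter, Col3a1, Pf4, Ly6c1 and Nbl1, Col3a1 held 1 match. For Ly6c1 the bases after the tabulated start were not found in its GENCODE transcripts as searched, so its window is uncertain. Over all 32851 tabulated promoters, 25.2% held either motif, 10.7% ACAATG and 16.5% ACAAAG, so 2 of 4 falls and 1 of 4 rises describe these windows and no more.

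Col10a1 (chromosome 10, 34389981 to 34397085), which codes for the collagen X made during chondrocyte hypertrophy, showed the largest fall of a named gene. It had 358, 269, 48.0 and 71.7 in mutants, against 4329, 3045, 3026 and 5111 in controls. Every mutant lay far below every control, lowest in growth plate, and the log2 fold change was −4.79 ± 0.51 (limma, Benjamini-Hochberg adjusted p = 0.0201). Ucma, a secreted cartilage protein (chromosome 2, 4976122 to 4985748), had 40.1, 25.6, 36.2 and 22.8 in mutants, against 389, 248, 353 and 388 in controls. The groups did not overlap, and the pair log2 ratios of −3.25, −3.22, −3.25 and −4.03 gave −3.44 ± 0.20 over the 4 pairs (limma, Benjamini-Hochberg adjusted p = 0.00545).

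Of the 3 collagen IX genes, whose product decorates the collagen II fibril, Col9a2 and Col9a3 fell, at levels far higher in growth plate than in articular cartilage. Col9a2 (chromosome 4, 121039385 to 121055322) had 34.1, 22.1, 186 and 455 in mutants, against 218, 137, 3767 and 2151 in controls. The growth plate mutants lay above at least 1 articular control, so the groups overlapped, while each pair fell (−2.95 ± 0.36, limma, Benjamini-Hochberg adjusted p = 0.0266). Col9a3 (chromosome 2, 180597790 to 180622189) had 12.8, 10.8, 109.7 and 245 in mutants, against 81.1, 63.6, 2334 and 1093 in controls, with a similar overlap (−2.89 ± 0.37, limma, Benjamini-Hochberg adjusted p = 0.0299). Col9a3 missed the threshold after median ratio scaling (0.0550) and quantile normalisation (0.0566), and Col9a2 after median ratio scaling (0.0509).

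Of 8 cartilage collagens 3 were called lower, Col10a1, Col9a2 and Col9a3, and 0 higher, and 7 were lower in all 4 pairs, against 0.394% called lower and 5.08% lower in all 4 pairs over all genes. The list's median log2 fold change was −2.35, with pair medians of −1.39, −1.86, −4.06 and −2.16, against 0.17 over all genes. Without Col11a1, which lies in the 219-row stretch, the median was −2.05, and 6 of 7 were lower in all 4 pairs. Col2a1, the main cartilage collagen, had 155, 169, 1547 and 3090.1 in mutants, against 401, 313, 21242 and 13921 in controls. It was lower in all 4 pairs but missed the threshold (−2.05 ± 0.47, limma, Benjamini-Hochberg adjusted p = 0.0918). Col11a2, a chain of collagen XI, also missed it (−1.65, adjusted p = 0.0559 by limma with Benjamini-Hochberg adjustment). Col9a1 had 3.05, 3.50, 105 and 222 in mutants, against 2.34, 1.94, 2465 and 1566 in controls, higher in the articular mutants and lower in the growth plate ones. The summed level of the 8 genes ranged over 599.9 to 5681 in mutants and 3977 to 40613 in controls.

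Small matrix proteins and proteoglycans fell in part. Of 22 listed genes 4 were called lower and 0 higher, and 11 were lower and 2 higher in all 4 pairs. Over all genes 0.394% were called lower, and 5.08% were lower and 20.4% higher in all 4 pairs. The list had a median log2 fold change of −1.14. The pair medians were −0.25, −0.61, −1.65 and −1.34. Besides Acan and Ucma these were Snorc (3110079O15Rik in the table), a small transmembrane chondroitin sulphate proteoglycan, and Cnmd (Lect1 in the table), the anti-angiogenic chondromodulin. Snorc, as 3110079O15Rik, had 26.8, 28.4, 118 and 126 in mutants, against 399, 333, 741 and 705 in controls, without overlap (−3.11 ± 0.28, limma, Benjamini-Hochberg adjusted p = 0.016). Lect1 had 16.5, 7.86, 371 and 375 in mutants, against 35.1, 22.1, 1797 and 1392 in controls, and each pair fell (−1.65 ± 0.24, adjusted p = 0.0368 in the same fit). Hapln1, the link protein that ties aggrecan to hyaluronan, had 134, 166, 178 and 161 in mutants, against 243, 269, 1449 and 876 in controls and did not pass (−1.75, limma, Benjamini-Hochberg adjusted p = 0.103). Matn3 was at 1 in all 4 articular libraries, and in growth plate it had 12.3 and 40.9 in mutants, against 853 and 581 in controls.

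Enzymes that build and sulphate glycosaminoglycans had 1 called member of 18, a fall, against 0.394% of all genes called lower. Chst11, a chondroitin 4-O-sulphotransferase, had 41.5, 28.9, 105 and 109 in mutants, against 97.3, 76.9, 338 and 274 in controls, lower in each pair (−1.40 ± 0.17, limma, Benjamini-Hochberg adjusted p = 0.0266). Lower in all 4 pairs but not called were Papss2, which makes the sulphate donor (−1.48, adjusted p = 0.0506), Slc26a2, a sulphate transporter (−1.36), Xylt1, which starts the chains (−0.97), Chst12 (−0.97), Csgalnact1 (−1.003) and Slc35d1 (−1.05), by the same limma fit with Benjamini-Hochberg adjustment. Papss1 lies in the 219-row stretch, and without it 7 of 17 were lower in all 4 pairs, against 5.08% of all genes. The list's median without Papss1 was −0.35 instead of −0.58. Of 23 genes of collagen processing and secretion 2 were called lower and 0 higher, against 0.394% and 0.965% of all genes. The 2 were Pcolce2, which enhances procollagen trimming (−1.43 ± 0.22), and Leprel1, the prolyl 3-hydroxylase P3h2 (−1.21 ± 0.21). Their Benjamini-Hochberg adjusted p by limma were 0.0386 and 0.0499, and both missed 0.05 after either scaling. The median of that list was −0.28, with pair medians of −0.22, −0.03, −0.55 and −0.38.

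Few hypertrophic genes passed the test over both tissues. Of 13 listed genes 2 were called lower, Col10a1 and Scin, and 0 higher, against 0.394% and 0.965% of all genes. Scin, an actin-severing protein of hypertrophic chondrocytes, had 23.9, 19.2, 10.6 and 8.78 in mutants, against 78.3, 76.0, 23.1 and 27.1 in controls, and each mutant was below its control (−1.55 ± 0.19, limma, Benjamini-Hochberg adjusted p = 0.0266). Ihh, which codes for the secreted signal Indian hedgehog, had 7.56, 1.98, 26.9 and 11.8 in mutants, against 14.4, 7.59, 72.9 and 86.1 in controls and narrowly missed (−1.64, limma, Benjamini-Hochberg adjusted p = 0.059). Cdkn1c, the cell cycle inhibitor p57, had 14.7, 13.6, 9.22 and 10.1 in mutants, against 15.6, 13.1, 126 and 106 in controls and was lower in the growth plate pairs, with pair ratios of −0.08, 0.05, −3.64 and −3.27. Mmp13, collagenase 3, had a log2 fold change of 0.40 and Spp1, osteopontin, one of 0.54, the 1 member above 0 in all 4 pairs. The list's pair medians were 0.11, −0.04, −1.06 and −1.64, so its articular medians lay near 0.

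Growth plate signalling held few shared changes. Of 13 hedgehog and PTHrP genes 0 were called by limma, against 1.36% of all genes. Ihh and Gas1 (1.52), a hedgehog co-receptor, had 1 direction in all 4 pairs. Of 13 FGF and natriuretic peptide genes 2 were called lower, against 0.394% of all genes. Fgfr3, the receptor that restrains growth plate chondrocyte proliferation, had 12.3, 9.32, 38.7 and 27.8 in mutants, against 64.8, 46.5, 102 and 56.3 in controls (−1.72 ± 0.26, limma, Benjamini-Hochberg adjusted p = 0.0372). Fgfrl1, an FGF receptor without a kinase domain, had 14.2, 11.4, 14.5 and 15.4 in mutants, against 43.2, 24.0, 58.3 and 38.3 in controls (−1.44 ± 0.19, adjusted p = 0.0324 in the same fit). Each fell in every pair, and both missed the threshold after either scaling.

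The IGF axis held a called fall and a called rise among 14 genes, against 0.394% of all genes called lower and 0.965% higher. Stc2 encodes stanniocalcin 2, a secreted inhibitor of the protease PAPP-A, and Igfbp4 encodes an IGF-binding protein that PAPP-A cleaves. Stc2 (chromosome 11, 31357307 to 31370074) had 3.44, 1.46, 2.81 and 1.67 in mutants, against 41.2, 24.1, 13.5 and 27.2 in controls, without overlap (−2.98 ± 0.28, limma, Benjamini-Hochberg adjusted p = 0.016). Igfbp4 (chromosome 11, 99041244 to 99054392) had 67.1, 104, 58.0 and 72.9 in mutants, against 20.7, 38.8, 15.7 and 26.7 in controls, higher in mutants without overlap (1.57 ± 0.16, limma, Benjamini-Hochberg adjusted p = 0.0191). Igf1, the growth factor itself, had 14.2, 10.8, 7.44 and 5.41 in mutants, against 1.10, 2.42, 2.76 and 1.74 in controls and narrowly missed (1.76, limma, Benjamini-Hochberg adjusted p = 0.051). The Stc2 and Igfbp4 calls held under both scalings.

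Secreted Wnt antagonists were called in both directions, 2 of 11 higher and 2 lower, against 0.965% and 0.394% of all genes. Sfrp5 (chromosome 19, 42197971 to 42202252) had 12.8, 7.46, 8.20 and 4.60 in mutants, against 138, 84.1, 16.9 and 21.4 in controls. Its fall was larger in articular cartilage (−2.40 ± 0.41, limma, Benjamini-Hochberg adjusted p = 0.0476), and it missed the threshold after either scaling. Frzb, whose product is abundant in articular cartilage, had 17.6, 12.97, 3.00 and 3.41 in mutants, against 64.6, 36.9, 11.7 and 18.8 in controls (−1.77 ± 0.18, limma, Benjamini-Hochberg adjusted p = 0.0166). Sfrp4 rose in every pair, with 87.5, 94.9, 40.6 and 40.5 in mutants, against 25.9, 35.5, 7.89 and 12.3 in controls and no overlap (1.75 ± 0.18, limma, Benjamini-Hochberg adjusted p = 0.0201). Dkk3, a Dickkopf relative, rose with 21.5, 20.5, 3.65 and 7.14 in mutants, against 8.11, 3.80, 1.08 and 1.26 in controls (1.62 ± 0.22, limma, Benjamini-Hochberg adjusted p = 0.0331), and was not called after either scaling. Of 13 Wnt ligand and target genes 0 were called, against 1.36% of all genes, and the median was −0.12. Wnt10b (1.48) and Wnt4 (0.75) had 1 direction in all 4 pairs.

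Nog, the BMP antagonist noggin, was the 1 called gene of 25 in BMP and TGF-beta signalling, against 1.36% of all genes. It had 6.08, 2.98, 3.55 and 3.44 in mutants, against 18.8, 11.5, 15.8 and 12.6 in controls, lower in each pair (−1.66 ± 0.16, limma, Benjamini-Hochberg adjusted p = 0.0166). Of the 25 genes 8 were higher and 3 lower in all 4 pairs, against 20.4% and 5.08% of all genes, and the median was −0.08. Without Bmpr1b, which lies in the 219-row stretch, the median was 0.008. Among the 8 higher, none of them called, were the BMP target genes Id1 (0.59), Id2 (0.31) and Id3 (1.11) and the inhibitory Smads Smad6 (0.94) and Smad7 (0.68). Lower in all 4 pairs beside Nog were Bmp2 (−0.70) and Chrdl1 (−0.80), neither of them called. Nbl1, a BMP antagonist that was not on the list, was among the 8 largest rises under the same limits on mean and symbol.

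The remaining named falls were Cpm and a pseudogene. Cpm, carboxypeptidase M (chromosome 10, 117629500 to 117687352), had 13.04, 10.3, 1.53 and 1 in mutants, against 74.2, 53.5, 11.6 and 20.05 in controls (−2.60 ± 0.23, limma, Benjamini-Hochberg adjusted p = 0.016). The day 7 growth plate control lay below the day 7 articular mutant, while each pair fell. Itih5l-ps had 1.597, 2.92, 2.41 and 3.29 in mutants, against 47.2, 32.3, 11.95 and 13.5 in controls (−2.74 ± 0.41, limma, Benjamini-Hochberg adjusted p = 0.0372). It missed the threshold after either scaling. Other called falls, chosen here after their values were seen, were Fam101a (Refilin A, −2.49), the chondroadherin-like gene Chadl (−2.36), the glutamine transporter Slc38a3 (−2.36), the heparan sulphate 3-O-sulphotransferases Hs3st3b1 (−2.03) and Hs3st3a1 (−1.93), and the cartilage-secreted Mia1 (−1.74).

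**Figure D3:**
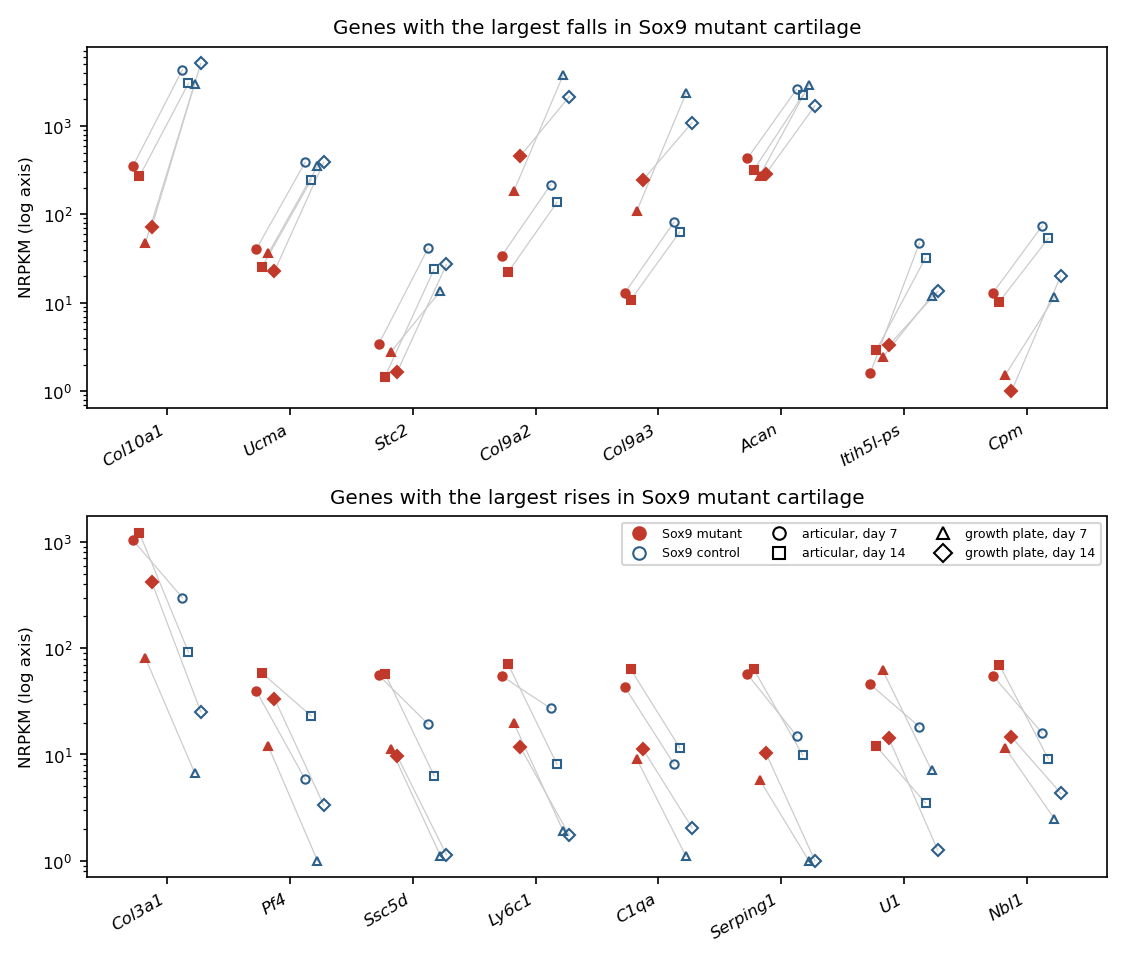
NRPKM on a log axis of the 8 largest called falls (upper panel) and 8 largest called rises (lower panel) within the limits on mean and symbol, in the 8 libraries, with filled symbols for mutants, open symbols for controls, shapes for tissue and day and a line joining each pair. Every line goes from mutant to a higher control in the upper panel and to a lower control in the lower panel. Levels of Col9a2 and Col9a3 are higher in growth plate than in articular cartilage of the same day and genotype.

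Under the same limits on mean and symbol, the 8 largest rises were in Col3a1, Pf4, Ssc5d, Ly6c1, C1qa, Serping1, U1 and Nbl1. The limit on symbols leaves out Gm11681 (5.08) and Gm10801 (2.17), among others, which rose more than Nbl1. Col3a1, the collagen III gene of fibrous tissue (chromosome 1, 45311538 to 45349706), had 1037, 1219, 80.6 and 422 in mutants, against 299, 91.8, 6.72 and 25.3 in controls. All pairs rose, while the day 7 growth plate mutant stayed below both articular controls (3.23 ± 0.37, limma, Benjamini-Hochberg adjusted p = 0.0261). Col3a1 missed the threshold by a little after median ratio scaling (0.0502), and Nbl1 after quantile normalisation (0.0566). Nbl1 had 55.0, 70.3, 11.5 and 14.6 in mutants, against 15.9, 9.10, 2.48 and 4.33 in controls (1.99 ± 0.24, limma, Benjamini-Hochberg adjusted p = 0.0266). U1 is a spliceosomal RNA gene with near-identical copies among which reads can be split, so the copy named here (Gm25890 in GENCODE, 2.14 ± 0.32) is uncertain, and its call was lost after median ratio scaling (0.0694) and quantile normalisation (0.0741).

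Fibroblast and tendon genes had 3 called rises of 16, Col3a1, Pdgfra and Col5a1, against 0.965% of all genes called higher. In all 4 pairs 10 were higher and 0 lower, against 20.4% and 5.08% of all genes. The median log2 fold change was 1.39, with pair medians of 1.25, 1.43, 0.87 and 1.18. Pdgfra, a receptor of stromal cells, had 49.6, 62.3, 42.0 and 35.1 in mutants, against 14.2, 17.4, 6.26 and 14.2 in controls (1.83 ± 0.23, limma, Benjamini-Hochberg adjusted p = 0.0289). Col5a1, a collagen of fibrous tissue, had 1.35 ± 0.17 (limma, Benjamini-Hochberg adjusted p = 0.0299), and Postn, periostin (2.35), and Dpt, dermatopontin (2.06), were higher in all 4 pairs without passing. The summed level of the 16 genes was 2122 to 5387 in mutants and 1954 to 3125 in controls, higher in the mutant of all 4 pairs. How far a different share of captured cells takes part in these values was not tested.

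Macrophage genes were higher in these mutants, with 3 of 11 called higher and all 11 higher in all 4 pairs, against 0.965% and 20.4% of all genes. C1qa, a chain of the complement starter C1q (chromosome 4, 136895917 to 136898803), had 43.5, 63.4, 9.01 and 11.2 in mutants, against 8.21, 11.5, 1.10 and 2.04 in controls. Both growth plate mutants lay between the articular controls, and every pair rose (2.22 ± 0.16, limma, Benjamini-Hochberg adjusted p = 0.00819), under both scalings as well. C1qb rose by 1.72 and Mrc1, the mannose receptor, by 1.75 (limma, Benjamini-Hochberg adjusted p = 0.0331 and 0.0266). Lyz2, lysozyme, had 159.8, 167, 94.2 and 65.4 in mutants, against 31.3, 79.4, 4.73 and 16.7 in controls and did not pass (2.33, adjusted p = 0.0608 in the same fit). The list's pair medians were 2.27, 1.06, 1.61 and 1.12, and its summed level was 314 to 458 in mutants and 84.6 to 208 in controls, without overlap. No member was at 1 in any mutant, and 0 to 3 members were at 1 in controls. In the Sox8fl/fl Sox9fl/fl libraries the list summed to 353 and 923 in mutants and 401 and 248 in controls (articular, then growth plate). That articular control lay above its own mutant and within the range of the 4 Sox9 mutants. The part of infiltrating or captured macrophages in these values was not tested.

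Of the other large rises, Serping1, which encodes the complement inhibitor C1 inhibitor, had 56.8, 63.8, 5.79 and 10.4 in mutants, against 15.1, 9.91, 1 and 1 in controls (2.17 ± 0.20, limma, Benjamini-Hochberg adjusted p = 0.016). Pf4, the chemokine CXCL4 of platelets and macrophages, had 40.0, 58.1, 11.96 and 33.6 in mutants, against 5.83, 23.1, 1 and 3.36 in controls (2.39 ± 0.29, limma, Benjamini-Hochberg adjusted p = 0.0266). Both rose in each pair, and Pf4 missed the threshold after either scaling. Ssc5d, a soluble scavenger receptor, rose by 2.33 ± 0.26 and Ly6c1, a surface protein of endothelial and myeloid cells, by 2.26 ± 0.33, of which Ly6c1 was not called after either scaling. Of 18 cytokine and inflammatory genes 1 was called and 5 were higher in all 4 pairs, against 1.36% and 20.4% of all genes. The called gene was Cxcl12, a stromal chemokine, with 27.4, 50.6, 31.0 and 26.97 in mutants, against 7.08, 25.9, 8.10 and 11.6 in controls (1.43 ± 0.21, limma, Benjamini-Hochberg adjusted p = 0.036), also lost after either scaling.

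The osteoblast, matrix degrading, articular, B cell, adipocyte and muscle lists held 1 or 2 called genes each, against 1.36% of all genes. Of 20 osteoblast and osteocyte genes Tnn, tenascin-W, rose (2.51 ± 0.39, limma, Benjamini-Hochberg adjusted p = 0.0386), while Col1a1, the collagen of bone, had 2548, 2604, 12168 and 16508 in mutants, against 729, 2091, 2171 and 6678 in controls and did not pass (1.48). Of 16 matrix degrading enzymes and inhibitors Mmp2, gelatinase A, rose (1.69 ± 0.28) and the metalloproteinase inhibitor Timp3 fell (−1.61 ± 0.26), with adjusted p of 0.0457 and 0.0452 by limma with Benjamini-Hochberg adjustment, and 10 of 16 were higher in all 4 pairs, against 20.4% of all genes, of which 1.36% were called in either direction. Of 15 articular and superficial zone genes Dkk3 and Thbs4, thrombospondin 4 (1.34 ± 0.20), were called higher and 0 lower. Prg4, the lubricin gene, had 10362, 9137, 6.06 and 7.96 in mutants, against 24374, 24884, 3.61 and 36.4 in controls. It was lower in both articular mutants and in the day 14 growth plate mutant. It was higher only in the day 7 growth plate mutant, where its level was low. The summed level of this list, mostly Prg4 in articular cartilage, was 18690.3 and 16187.5 in articular mutants, against 31702.7 and 32476.5 in their controls. In growth plate the sum was higher in both mutants. Ebf1, a factor of B cells and stromal precursors (1.43), Lpl, lipoprotein lipase (1.26), and Des, the muscle filament desmin (1.28), were the called genes of the B cell (7 genes), adipocyte (8) and skeletal muscle (12) lists. None of Tnn, Mmp2, Timp3, Thbs4, Ebf1, Lpl and Des passed after either scaling.

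The summed level of adipocyte genes was 45.6 to 95.4 in mutants and 16.8 to 55.0 in controls, and that of osteoblast and osteocyte genes 7392 to 31838 and 5415 to 21454, both higher in the mutant of all 4 pairs. Endothelial genes summed to 59.7 to 110.0 in mutants and 31.3 to 98.8 in controls, higher in 3 pairs. Neutrophil genes summed to 267 to 842 in mutants and 40.6 to 1193 in controls, with pair medians of 2.07, −1.63, 2.89 and 2.27, and erythroid genes to 252 to 897 and 112 to 635, with pair medians of 1.47, −1.21, 1.69 and 1.33. In both the day 14 articular pair went against the other 3 pairs. B cell genes summed to 39.1 to 172 in mutants and 7.53 to 192 in controls, and muscle genes to 34.7 to 493 and 17.1 to 627, with a muscle pair median of 3.32 in the day 14 growth plate pair. The part of these cells in the called genes was not tested.

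**Figure D4:**
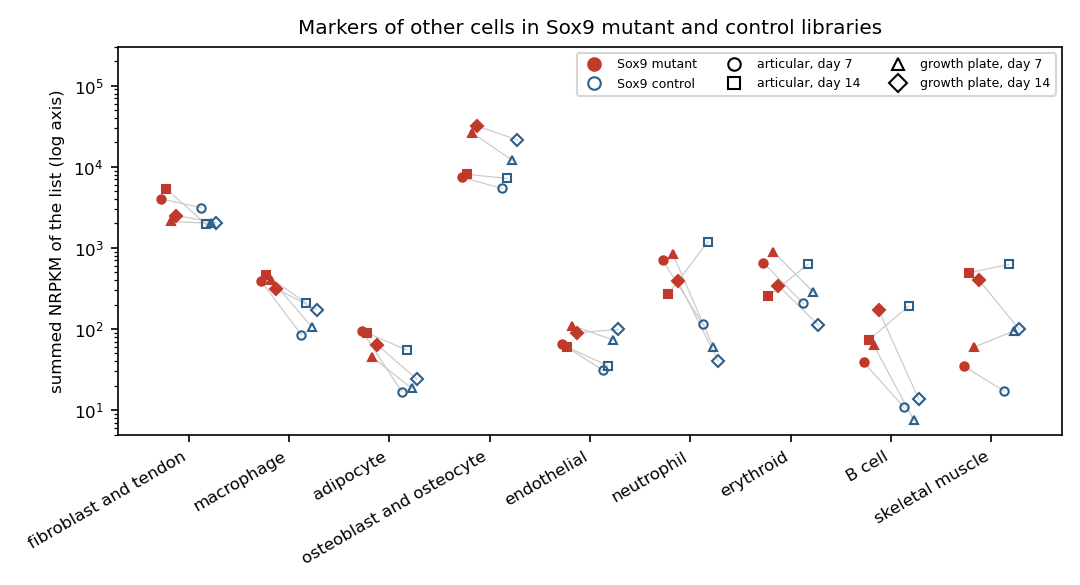
Summed NRPKM on a log axis of 9 lists of markers of other cells in the 8 libraries, with filled symbols for mutants, open symbols for controls, shapes for tissue and day and a line joining each pair. Macrophage sums of the mutants (314 to 458) lie above all controls (84.6 to 208), while neutrophil, erythroid and B cell sums are reversed in the day 14 articular pair.

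Among general cell functions, limma called 0 of 20 immediate early, 14 heat shock and unfolded protein and 22 glycolysis and hypoxia genes. It called 0 of 21 respiratory chain and 17 cell cycle genes, and 0 of 13 neutrophil, 9 osteoclast, 11 erythroid and 11 endothelial genes. Over all genes 1.36% were called in either direction, so 0 called in lists of this size says little. Of the 22 glycolysis and hypoxia genes 6 were lower and 1 higher in all 4 pairs, against 5.08% and 20.4% of all genes. Members with 1 direction in all 4 pairs included Fosl2 (0.55) and Jund (−0.30) of the AP-1 factors, the stress genes Gadd45g (0.89) and Gadd45b (−0.30), the glycolytic Eno1 (−0.72), and the CDK inhibitors Cdkn2c (0.38) and Cdkn1b (0.30). The medians of these 5 functional lists lay between −0.06 and 0.08, below the 0.17 of all genes.

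**Figure D5:**
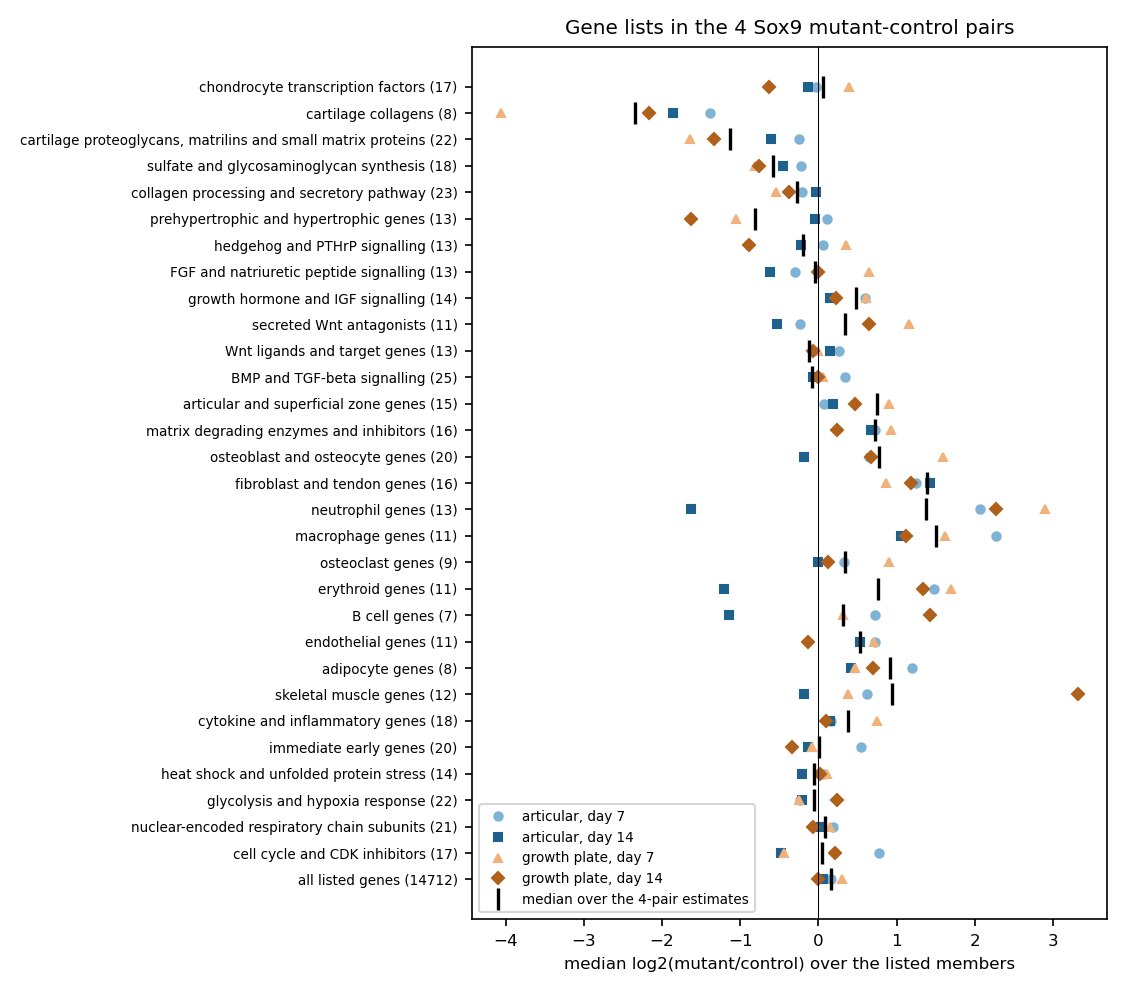
Median log2 ratio of mutant over control for each gene list (number of listed members in parentheses) in the 4 pairs, with shapes for tissue and day and a black bar for the median of the 4-pair estimates. Cartilage collagens (median −2.35) and cartilage proteoglycans (−1.14) lie to the left of 0, and fibroblast (1.39) and macrophage genes (1.51) to the right in all 4 pairs.

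Growth plate and articular cartilage were then compared for the size of the mutant effect. Limma with Benjamini-Hochberg adjustment called 0 of 14712 genes (0%) for the tissue difference, with 997 at an unadjusted p under 0.05 and a smallest adjusted p of 0.482. With 2 pairs per tissue the intervals were wide. Col10a1 had a growth plate minus articular difference of −2.50 in log2 ratio (95% interval −3.45 to −1.55), Col2a1 one of −1.85 (−3.49 to −0.21), Col9a1 one of −4.12 (−5.65 to −2.60) and Matn3 one of −4.90 (−6.75 to −3.05). Ucma had −0.40 (−1.35 to 0.54), Stc2 0.63 (−0.73 to 1.999), Sox8 0.46 (−0.54 to 1.45) and Sfrp5 1.85 (0.79 to 2.92). For Col10a1, Col2a1, Col9a1, Matn3 and Sfrp5 the gene's own interval excluded 0, and none passed adjustment over all genes. Matn3 was at the lowest listed value in every articular library and Col9a1 close to it. A fall in articular cartilage could therefore not show for these 2 genes, and their differences rest mostly on growth plate.

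The 4 Sox8fl/fl Sox9fl/fl libraries, which share no library with these pairs, gave a further mutant to control ratio per tissue. Of the 58 genes called lower, 55 were lower there in articular cartilage and 58 in growth plate, 55 in both (94.8%), against 35.0%, 28.4% and 11.3% of all genes. Their median log2 ratio was −0.87 in articular cartilage and −3.11 in growth plate. Of the 142 called higher, 96 were higher in articular cartilage and 126 in growth plate, 82 in both (57.7%), against 57.8%, 63.3% and 39.7% of all genes, with medians of 0.36 and 1.11. In those libraries Ucma had log2 ratios of −3.07 and −7.01 (articular, then growth plate), Col10a1 −2.86 and −7.40, Stc2 −2.32 and −3.44, Col3a1 0.19 and 2.10 and C1qa −0.63 and 2.13. The difference between the 2 allele sets, tested over 6 pairs, was called by limma with Benjamini-Hochberg adjustment in 0 of 14712 genes (0%), with 393 at an unadjusted p under 0.05. Sox9 was 282 and 36.0 in the Sox8fl/fl Sox9fl/fl libraries labelled mutant and 213 and 308 in the controls (articular, then growth plate). In the articular pair Sox9 was thus not lower in the mutant, and the ratios of that pair are to be read with that. The same articular mutant had Gm11681 at 38.7 against 1 in its control, and Acan at 347 against 1038. Why its Sox9 value was not lower was not tested. Xist was at 1 in all 8 Sox9fl/fl libraries and at 61.2 to 76.5 in the other 4, and Ddx3y at 11.8 to 22.0 and at 1, so allele set and sex-linked expression cannot be told apart. The headers of those other 4 libraries also name no R26tdT allele, and all 4 are from day 14. Reporter allele and day thus also differ between the allele sets.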

How the data were processed

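Laser-captured articular and growth plate cartilage gave 12 stranded total RNA libraries, 8 of them analysed here as 4 pairs matched by tissue and day. The deposited table holds RPKM values that the authors normalised further and called NRPKM per the file headers. How they did so, the aligner, the counting tool and the rule for listing genes are not given here by labels or headers. Genome build mm10 was named, per the submitters' processing notes. Whole reads could not be recovered, so depth is unknown. Groups came from titles and genotypes. The labels number no replicates; tissue and day were the block.

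On log2(value + 1), limma 3.58.1 (empirical Bayes, mean trend, robust; statmod 1.5.0, R 4.3.3) was fitted with pair and Cre as terms (3 residual degrees of freedom), Benjamini-Hochberg adjustment over 14712 genes and calls at an adjusted p under 0.05. The tissue difference has 2 and the comparison with the Sox8fl/fl Sox9fl/fl pairs 4 residual degrees of freedom. This scale understates changes of low genes. If 2 libraries came from 1 animal, the p-values are too small. GENCODE M21 matched 14293 genes by identifier. No set test was run.

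Members, lists and tests were chosen with earlier results of these data known. Named genes were Sox9, Sox8 and Acan; the 8 largest called rises and falls with 1 direction in all 4 pairs, a mean value of 10 or more and a symbol that is not a predicted gene; and up to 2 members of each of 30 lists, called where possible. Any other gene in the text was picked with its values in view. Alternatives were other added values, a mean filter, scaling, fits without the block, another variance model, all 12 libraries and leaving out each pair. Testing protein-coding genes alone and leaving out the 219-row stretch were chosen after seeing the data.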

Additional observations from a re-analysis of the deposited data

Results flagged for a closer look

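The list medians of the secreted Wnt antagonists differed in sign between the 2 tissues, although the 4 called members Sfrp5, Frzb, Sfrp4 and Dkk3 each had 1 direction in all 4 pairs. The median log2 ratio of mutant over control was −0.24 at day 7 and −0.52 at day 14 in articular cartilage, and 1.16 at day 7 and 0.64 at day 14 in growth plate. This difference between tissues was not tested. Dkk2 lies in the 219-row stretch at 1. Without it the medians were −0.25 and −0.26 in articular cartilage and 1.30 and 0.58 in growth plate.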

How the results depend on the processing

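No named gene changed direction in any alternative that tested it (59 genes, but 55 with a mean of at least 5 and 57 among protein-coding genes), while many calls were lost. The count of called genes (200; 142 higher, 58 lower) became 212 (151 and 61) with 0.1 added, 111 (73 and 38) with 5 added, 225 (166 and 59) without the 219-row stretch, 292 (207 and 85) with a mean of at least 5, and 365 (267 and 98) among protein-coding genes alone. It was 64 (28 and 36) after median ratio scaling and 56 (21 and 35) after quantile normalisation. With no replicate block it was 420 (323 and 97) with tissue and day as terms and 407 (308 and 99) with tissue alone. Tissue effects averaged gave 126 (68 and 58), all 12 libraries 120 (97 and 23), and a variance without trend or robust step 0 (0 and 0; 2607 at an unadjusted p under 0.05). Leaving out 1 pair gave 0 to 1 called genes, 0 to 1 higher and 0 lower, with 2 residual degrees of freedom left. Of 39 called named genes 18 kept their call after median ratio scaling, 19 after quantile normalisation, 38 with no replicate block and tissue and day terms, and 39 without the 219-row stretch. The tissue difference stayed at 0 called under its alternatives. The difference between allele sets stayed at 0 except for 2 without the Sox8fl/fl Sox9fl/fl growth plate pair (535 unadjusted). The pairing is by tissue and day, not by animal, and depth limits are unknown since no counts are given.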

Other observations

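Further called rises, singled out after their values were seen, were C3, Ctss, Rgs5, Axl and Gas6. C3, the central complement protein, had 50.2, 50.4, 10.5 and 7.36 in mutants, against 16.99, 14.8, 1 and 1 in controls (1.95 ± 0.21, limma, Benjamini-Hochberg adjusted p = 0.0201). Ctss, the protease cathepsin S, rose by 1.73, and Rgs5, a pericyte gene, by 1.86. The receptor gene Axl rose by 1.14 and its ligand gene Gas6 by 1.62 (limma, Benjamini-Hochberg adjusted p = 0.0386 and 0.0423). Gas6 had 54.4, 53.5, 30.9 and 26.99 in mutants, against 10.8, 11.3, 13.4 and 13.4 in controls, higher in each mutant than in its control.

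Across the table, 17 genes were at 1 in exactly 1 of the 8 libraries and at 20 or more in the other 7. Of these, 16 were at 1 in the day 14 articular mutant, and 1, Gm15725, was at 1 in the day 14 articular control. The called fall of Alg14, which has 6.56, 1, 7.96 and 6.30 in mutants, against 13.6, 8.09, 18.3 and 17.9 in controls, includes a value from the 219-row stretch.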
